A study of Homo sapiens with 12 samples.

Results

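The cytosolic ribosomal protein genes encode the protein part of the ribosome that translates nuclear mRNAs. They were taken as the protein-coding genes whose symbol is RPL or RPS and a number, with an A, X or L suffix where present, together with RPLP0, RPLP1, RPLP2 and RPSA. RPS27L, the RPS6K kinases, mitochondrial ribosomal proteins and pseudogenes were left out. The rule gave 84 of the 60483 gene rows, 53 of the large 60S subunit and 31 of the small 40S subunit, spread over 21 chromosomes with 12 of them on chromosome 19. Of the 84 genes, 81 passed the filter on low counts and were tested. RPL10L and RPL39L had 0 counts in every library, and RPL3L had 1 count, in a single library at 24 h of Dox.

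The cells were MCF10A, an immortalised, non-tumour human mammary epithelial line, carrying a tet-inducible TAZ-4SA transgene. TAZ, the product of WWTR1, is a transcription coactivator of the Hippo pathway, and the 4SA form carries serine-to-alanine changes that make it resistant to Hippo kinase signalling. Poly(A)-selected RNA was sequenced from 12 libraries in 4 groups of 3, namely cells without doxycycline (No Dox) and cells after 24, 48 and 72 h in 0.05 µg/mL doxycycline (Dox). All 4 groups carried the transgene, so TAZ-4SA, doxycycline and time in culture cannot be told apart, and it is not stated that the 3 libraries of a group came from different cultures.

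Each ribosome needs its proteins in near equal numbers, and their mRNAs are among the most abundant of a growing cell. Most of these mRNAs start with a C followed by a run of pyrimidines, the 5′ terminal oligopyrimidine (TOP) tract. The TOP tract is bound by LARP1 and lets the growth kinase mTORC1 control the translation and stability of these mRNAs together. MYC is a known activator of ribosomal protein genes, and RPL5 and RPL11 carry the 5S rRNA into the 60S subunit and can bind MDM2, which links the ribosome to p53.

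Start sites of 67 of the 84 genes were found among RefSeq promoters of GRCh38.p14, in 83 windows because some genes have several starts. A C at the listed start with a pyrimidine at each of the next 4 bases was found for 47 of these 67 genes, 70.1%, against 968 of 15236 protein-coding genes with a window, 6.35%. The windows below show 10 bases before and 20 bases after the start for genes on which the results turn, with the pyrimidine run that begins at such a start in capitals. The first 5 genes were among those most lowered in Dox. The listed starts of 4 of them hold the run and that of RPL3 does not. At RPL3 the listed start is a C, and only the last of the next 4 bases is not a pyrimidine.
RPL13A (chr19:49487598-49487627, plus strand): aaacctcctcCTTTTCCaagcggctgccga
RPL12 (chr9:127451387-127451416, minus strand): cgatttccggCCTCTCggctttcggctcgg
RPL3 (chr22:39319604-39319633, minus strand): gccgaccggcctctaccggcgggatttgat
RPL39 (chrX:119791611-119791640, minus strand): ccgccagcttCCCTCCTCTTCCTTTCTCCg
RPS25 (chr11:119018324-119018353, minus strand): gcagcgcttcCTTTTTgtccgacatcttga
The next 5 windows belong to 4 of the genes that were higher in Dox, and none of these listed starts holds the run. Listed starts may not be those used in these cells, and at RPL36AL pyrimidines lie on both sides of the listed start. In the RPS26 window a run of pyrimidines lies shortly after the listed start.
RPL26L1, upstream start (chr5:172958719-172958748, plus strand): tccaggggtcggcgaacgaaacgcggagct
RPL26L1, downstream start (chr5:172958870-172958899, plus strand): ggcggcggccacaaacccgcaggcacgccg
RPL7L1 (chr6:42879606-42879635, plus strand): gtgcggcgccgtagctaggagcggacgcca
RPS26 (chr12:56041908-56041937, plus strand): acataacctcgattttcttccgccatccgg
RPL36AL (chr14:49620607-49620636, minus strand): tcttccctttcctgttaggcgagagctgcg
The last 2 genes were higher in Dox as well and do start with the run.
RPL22L1 (chr3:170870176-170870205, minus strand): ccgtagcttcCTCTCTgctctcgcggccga
RPL35 (chr9:124861938-124861967, minus strand): cgcctacttcCTCTTTCCCTCggagcgggc

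The induction followed the labels. WWTR1 stood at 887 ± 68.1, 844 ± 73.6 and 994 ± 59.3 CPM at 24, 48 and 72 h of Dox, against 71.7 ± 2.88 CPM in No Dox cells (SD, n = 3 each), where CPM is the count scaled to the size of its library. Libraries held 15382564 to 26570132 counts. The 12 epithelial markers, keratins and cadherins among them, were all detected, with summed levels of 7181 to 9301 CPM over the 9 Dox libraries and 10617 to 11267 CPM in No Dox cells. Single markers were split. At an adjusted p under 0.05 in edgeR's test, 6 were lower and 6 higher at 24 h, 6 and 4 at 48 h, and 5 and 5 at 72 h. Their median log2 fold changes were -0.03, -0.12 and -0.05. Summed fibroblast markers were 1.92 to 4.83 CPM in Dox and 55.1 to 56.7 CPM in No Dox cells, leukocyte markers 2.06 to 4.49 and 19.8 to 23.6 CPM, and endothelial markers 1.85 to 13.5 and 36.8 to 38.3 CPM, with COL1A2, COL3A1, PDGFRA and CD3E at 0 counts in every group. Their part in the results was not tested. All 12 libraries came from MCF10A cells. Of these markers, 3 of 7 fibroblast, 1 of 6 leukocyte and 3 of 5 endothelial genes passed the filter on low counts. In bulk RNA, fewer cells that express a marker and less of its RNA per cell cannot be told apart. All levels are relative to the rest of the mRNA.

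Nearly all ribosomal protein genes were lower in Dox, by a modest and similar amount. In this section, lower and higher mean a Benjamini-Hochberg adjusted p under 0.05 in edgeR's quasi-likelihood test over all 14822 genes tested. At 24 h, 71 of the 81 members were lower, where 38.1% of all genes tested were lower, and 6 were higher, where 37.1% of all genes were higher. At 48 h, 69 were lower and 6 higher, against 35.8% and 36.0% of all genes. At 72 h, 67 were lower and 5 higher, against 34.8% and 34.3% of all genes. The same 66 members were lower at all 3 times, and the same 5 were higher. The median log2 fold change of the members was -0.41, -0.40 and -0.39 at 24, 48 and 72 h, against -0.03, -0.01 and -0.02 over all genes tested. The lower and upper quartiles of the members were -0.53 and -0.29 at 24 h, whereas those of all genes were between -0.70 and 0.54.

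The changes were small in size. With an added threshold of 1 on the log2 scale, only RPL26L1 was called at each of the 3 times, where 29.6%, 25.1% and 22.5% of all genes tested passed in either direction. RPL26L1 stood at 0.91 at 72 h with effective lengths as offsets, below this threshold. With the 3 Dox times tested together, 75 of the 81 members passed, and 86.3% of all genes did. The 6 that did not were RPL36, RPL38, RPS10, RPS15, RPS21 and RPSA. On the TPM scale, which divides by transcript length and is scaled to 1 fixed total in each library, the 3 Dox libraries lay below the 3 No Dox libraries without overlap for 69 members at 24 h, 66 at 48 h and 58 at 72 h. Over all genes tested this held for 33.7%, 29.7% and 26.6%.

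**Figure D1:**
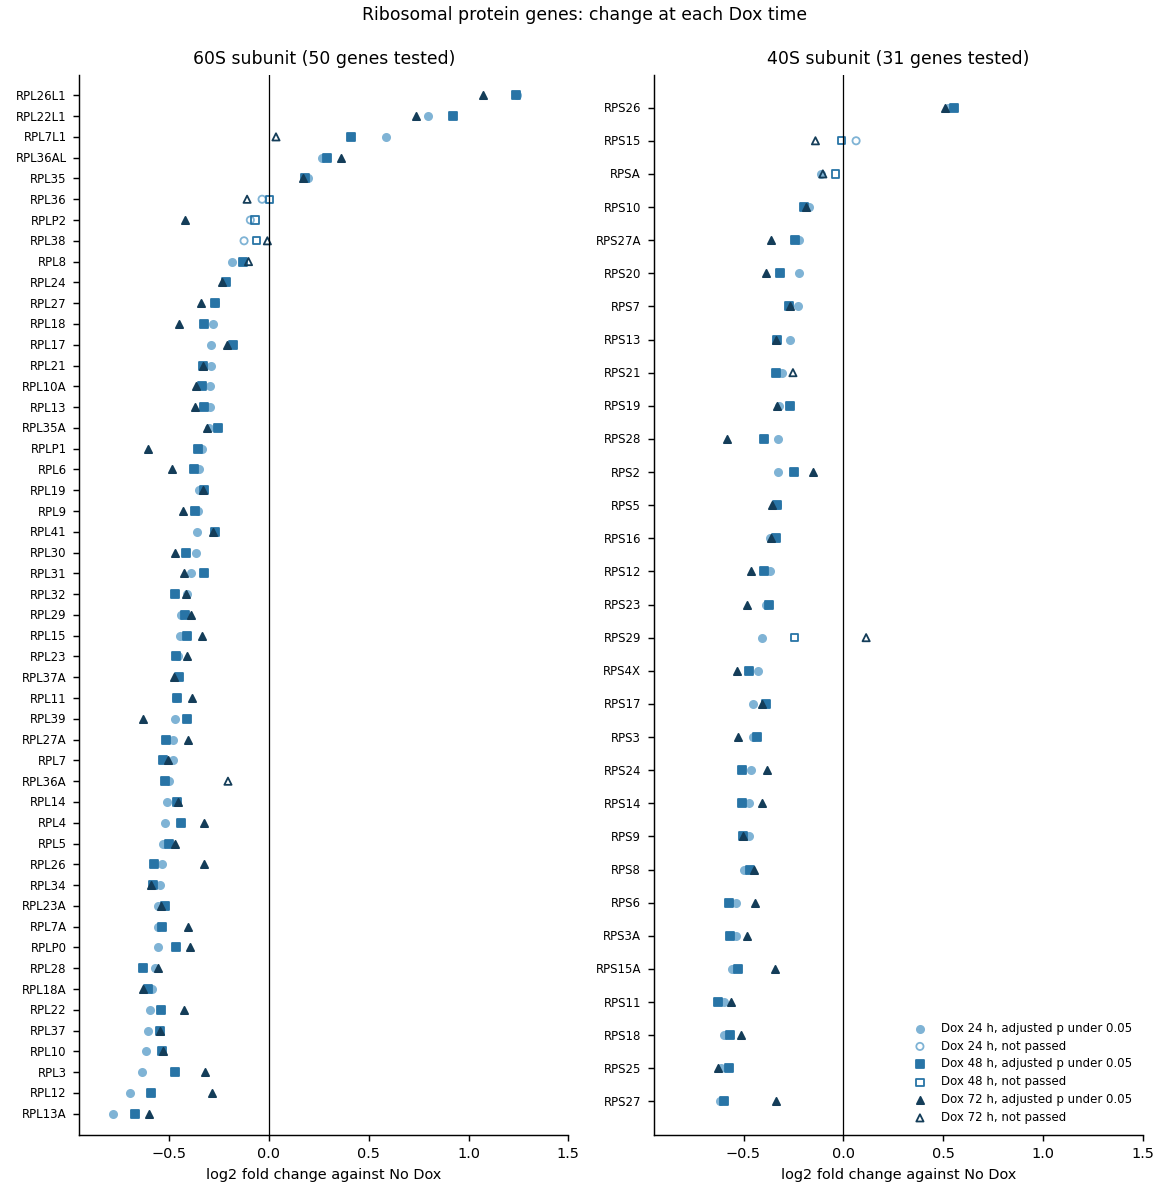
Each row is 1 of the 81 tested genes, split by subunit (60S left, 40S right) and ordered by its change at 24 h, and the x axis gives the log2 fold change of Dox against No Dox from edgeR. Filled symbols passed an adjusted p under 0.05 and open ones did not. The members have a median of -0.41, -0.40 and -0.39 at 24, 48 and 72 h, and RPL26L1, RPL22L1, RPL7L1, RPL36AL, RPL35 and RPS26 lie right of 0 at all 3 times, RPL7L1 at 72 h without passing.

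The genes took up a large part of the mRNA, and that part shrank. Together the 84 genes held 9.18%, 9.61% and 9.27% of the counts of the 3 No Dox libraries. They held 6.93%, 6.61% and 6.78% at 24 h, 7.24%, 6.91% and 6.68% at 48 h, and 6.93%, 6.71% and 7.68% at 72 h. Every Dox library thus lay below every No Dox library, and the highest Dox value came from replicate 3 at 72 h. On the TPM scale, where short transcripts weigh more, the genes held 19.7% ± 0.265, 20.0% ± 0.451 and 20.9% ± 1.59 at 24, 48 and 72 h of Dox, against 25.5% ± 0.458 in No Dox cells (SD, n = 3 each).

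**Figure D2:**
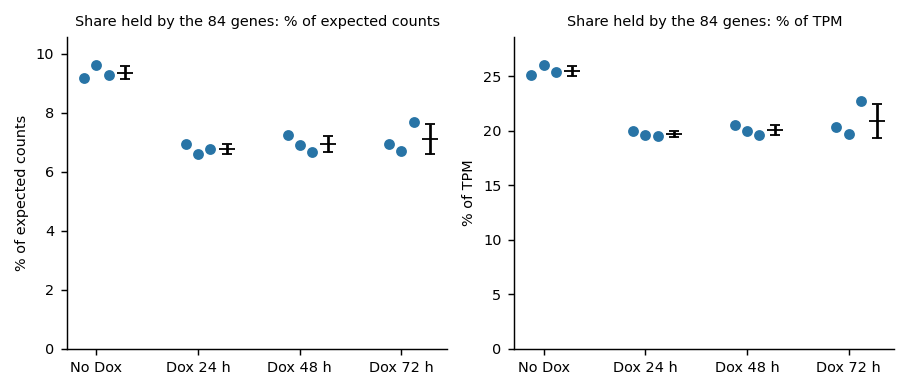
The share of all expected counts (left) and of all TPM (right) held by the 84 genes in each library, with the mean and SD of each group beside its 3 points. The No Dox libraries lie between 9.18% and 9.61% of counts and the Dox libraries between 6.61% and 7.68%.

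Levels differed widely between members. In No Dox cells the tested members had mean levels of 64.2 to 12532 TPM with a median of 3112, and 73 of 81 were above 1000 TPM. The medians were 2437, 2391 and 2497 TPM at 24, 48 and 72 h. RPS27, a zinc-finger protein of the 40S subunit, had the highest TPM over all libraries, followed by RPS24 and RPL26. RPS27 had 12408, 13010 and 12178 TPM in No Dox cells, 9210, 8771 and 8432 at 24 h, 8691, 8711 and 8325 at 48 h, and 9557, 8579 and 14440 at 72 h. In TPM its 24 h and 48 h libraries were all below No Dox, and replicate 3 at 72 h was above every other library. By counts this replicate was not the highest, at 939 CPM against 948, 1030 and 843 CPM in No Dox cells. The TPM of RPS27 divide by a mean effective length of only 88.0 nt. RPS24 was lower at all 3 times, with log2 fold changes of -0.46 ± 0.072, -0.51 ± 0.072 and -0.38 ± 0.072 (SE), and in No Dox cells its 6351 to 6781 TPM lay above the 5694 to 5885 TPM of RPL26 without overlap. At 24 h the 4725 to 5068 TPM of RPS24 also lay above the 4039 to 4191 TPM of RPL26. At 72 h the 2 genes overlapped, at 4538 to 5805 TPM for RPS24 and 4344 to 5520 TPM for RPL26.

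The lowest fold changes at 24 h were in the 60S subunit, in RPL13A, RPL12 and RPL3. RPL13A, which also takes part in translational silencing of inflammatory mRNAs when released from the ribosome, had 6024, 6009 and 5686 TPM in No Dox cells, 3408, 3402 and 3471 at 24 h, 3842, 3650 and 3499 at 48 h, and 3678, 3898 and 3826 at 72 h. All 9 Dox libraries were far below the 3 No Dox libraries. Its level by counts was 0.582-fold of No Dox at 24 h (log2 -0.78 ± 0.052, adjusted p = 1.26e-11), 0.627-fold at 48 h and 0.659-fold at 72 h.

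RPL12, which sits at the base of the stalk that recruits elongation factors, had 4967, 5092 and 5150 TPM in No Dox cells, 3304, 3199 and 3173 at 24 h, 3566, 3512 and 3368 at 48 h, and 4031, 4270 and 4831 at 72 h. The 72 h libraries lay between the 48 h and the No Dox libraries. The log2 fold changes were -0.69 ± 0.063, -0.59 ± 0.063 and -0.29 ± 0.063 at 24, 48 and 72 h, with adjusted p = 2.55e-09, 3.42e-08 and 0.00041 in edgeR's test.

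RPL3, which reaches into the peptidyl transferase centre, had 3854, 3959 and 3961 TPM in No Dox cells, 2787, 2650 and 2696 at 24 h, 3041, 3046 and 2950 at 48 h, and 3317, 3385 and 3373 at 72 h. The 4 groups did not overlap, and each later Dox group was closer to No Dox. The log2 fold changes were -0.63 ± 0.048, -0.47 ± 0.048 and -0.32 ± 0.048, and 48 h differed from 24 h by 0.16 (adjusted p = 0.0108, edgeR).

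RPL28, RPL39 and RPS25 were among the lowest at 48 or 72 h. RPL28, a 60S protein, had 1620, 1708 and 1810 TPM in No Dox cells, 1337, 1258 and 1228 at 24 h, 1343, 1241 and 1175 at 48 h, and 1284, 1323 and 1267 at 72 h. RPL39, which lines the exit tunnel of the nascent chain, had 3454, 3742 and 3402 TPM in No Dox cells, 2576, 2771 and 2656 at 24 h, 2875, 2718 and 2626 at 48 h, and 2688, 2044 and 2601 at 72 h. RPS25, a 40S head protein needed for initiation at some viral internal ribosome entry sites, had 1725, 1785 and 1650 TPM in No Dox cells, 1127, 1168 and 1171 at 24 h, 1259, 1196 and 1155 at 48 h, and 1194, 1134 and 1189 at 72 h. None of the Dox libraries of these 3 genes reached the lowest No Dox library. Their lowest log2 fold changes were -0.63 ± 0.064 for RPL28 at 48 h, -0.63 ± 0.079 for RPL39 at 72 h and -0.63 ± 0.055 for RPS25 at 72 h.

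Both subunits moved alike. Of the 50 tested 60S genes, 42 were lower and 5 higher at 24 h, with a median log2 fold change of -0.43. Of the 31 tested 40S genes, 29 were lower and 1 higher, with a median of -0.39. At 72 h the counts were 41 lower and 4 higher in the 60S subunit and 26 lower and 1 higher in the 40S subunit, with medians of -0.39 and -0.38.

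Among functional sites, the 5S RNP pair moved together. RPL5 had 1250 ± 21.9, 1293 ± 9.05 and 1330 ± 8.68 TPM at 24, 48 and 72 h, against 1750 ± 55.2 in No Dox cells, and RPL11 had 3007 ± 57.2, 3033 ± 49.2 and 3246 ± 242 TPM against 4002 ± 163 (SD, n = 3 each). Both were lower at all 3 times, by 0.39 to 0.53 on the log2 scale. At the tunnel exit, 7 of 8 genes were lower at each time and RPL35 was higher. Of the 14 genes of the 40S head, 13 were lower at 24 h and 12 at 48 and 72 h, and none was higher. RPS6, the 40S protein phosphorylated by S6 kinase, was lower with log2 fold changes of -0.54, -0.57 and -0.44. Of 20 genes mutated in Diamond-Blackfan anaemia, an inherited failure of red cell production, 18 were lower at 24 h and RPS26 and RPL35 were higher. At 24 h, 87.5% of the tunnel exit genes, 92.9% of the 40S head genes and 90.0% of the Diamond-Blackfan genes were lower. These shares lay near the 87.7% of all tested members, where 38.1% of all genes tested were lower.

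The stalk proteins did not move as one. RPLP0, the stalk base on which the RPLP1 and RPLP2 dimers sit, had 4586, 4816 and 4856 TPM in No Dox cells, 3263, 3051 and 2963 at 24 h, 3495, 3424 and 3273 at 48 h, and 3584, 3893 and 3512 at 72 h. RPLP1 had 1128, 1184 and 1215 TPM in No Dox cells, 960, 959 and 1023 at 24 h, 1022, 950 and 920 at 48 h, and 899, 737 and 900 at 72 h. RPLP2 had 1013, 1131 and 1049 TPM in No Dox cells, 1041, 1039 and 1075 at 24 h, 1121, 1062 and 1014 at 48 h, and 907, 813 and 908 at 72 h. RPLP0 was thus lowest at 24 h, whereas RPLP1 and RPLP2 were lowest at 72 h. RPLP2 was lower only at 72 h, with a log2 fold change of -0.42 ± 0.061 (adjusted p = 3.46e-06, edgeR), and stood at -0.09 ± 0.061 at 24 h (adjusted p = 0.17).

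RPLP0, RPL13A and RPS18 are often used as reference genes in quantitative PCR. Their levels by counts at 24 h were 0.68-fold, 0.582-fold and 0.66-fold of No Dox, all 3 lower. RPL36 stood at 0.976-fold and RPS15 at 1.05-fold, and neither passed the test at any Dox time against No Dox.

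RPSA changed least among the proteins of special make-up and RPS27A somewhat more. RPSA, the 40S protein also described as a laminin receptor, had 2517, 2591 and 2641 TPM in No Dox cells, 2622, 2488 and 2418 at 24 h, 2636, 2660 and 2645 at 48 h, and 2612, 2526 and 2519 at 72 h. The Dox and No Dox ranges overlapped at all 3 times, and its log2 fold changes of -0.11, -0.04 and -0.10 had adjusted p = 0.0313, 0.442 and 0.0545 in edgeR's test. The call at 24 h was lost with effective lengths as offsets (-0.09, adjusted p = 0.131), with no filter on low counts, and without any one of the 3 No Dox libraries, replicate 2 or 3 at 24 h or replicate 1 or 2 at 48 h, with values of -0.12 to -0.08. RPS27A, made as a fusion with ubiquitin, had 1904, 1956 and 1946 TPM in No Dox cells, 1626, 1667 and 1667 at 24 h, 1766, 1672 and 1645 at 48 h, and 1551, 1247 and 1561 at 72 h. It was lower at all 3 times, by 0.22, 0.24 and 0.36 on the log2 scale, though the call at 24 h was lost without No Dox replicate 3 (-0.20).

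Of the 6 genes that were higher at 24 h, 4 were the second copy of a paralogue pair. RPL26L1, a near copy of RPL26, had 73.3, 95.0 and 69.4 TPM in No Dox cells, 189, 178 and 208 at 24 h, 175, 178 and 173 at 48 h, and 160, 155 and 158 at 72 h. Every Dox library was above every No Dox library. Its log2 fold changes were 1.24 ± 0.068, 1.24 ± 0.068 and 1.07 ± 0.068, or 2.36-fold, 2.36-fold and 2.10-fold of No Dox (adjusted p = 5.59e-13, 7.03e-13 and 9.57e-12, edgeR). Its partner RPL26, which in human cells binds p53 mRNA, had 5694, 5885 and 5845 TPM in No Dox cells, 4191, 4092 and 4039 at 24 h, 4040, 4024 and 3949 at 48 h, and 4344, 4809 and 5520 at 72 h, so that the pair moved in opposite directions.

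RPL22L1 had 537, 531 and 563 TPM in No Dox cells, 1018, 955 and 976 at 24 h, 1124, 1072 and 1060 at 48 h, and 926, 967 and 1084 at 72 h. It was higher at all 3 times, with log2 fold changes of 0.80 ± 0.075, 0.92 ± 0.075 and 0.74 ± 0.075. RPL22, the RNA-binding partner that in mouse represses its paralogue, had 527, 594 and 537 TPM in No Dox cells, 526, 472 and 452 at 24 h, 538, 507 and 517 at 48 h, and 578, 602 and 679 at 72 h. The pair stood at about equal TPM in No Dox cells, and RPL22L1 was above RPL22 in all 9 Dox libraries.

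RPL7L1, related to a yeast protein of 60S assembly, had 62.9, 66.4 and 63.2 TPM in No Dox cells, 93.3, 103 and 93.6 at 24 h, 88.2, 95.0 and 88.2 at 48 h, and 72.5, 80.5 and 72.4 at 72 h. Its log2 fold changes by counts were 0.59 ± 0.045 and 0.41 ± 0.045 at 24 and 48 h, and 0.04 ± 0.045 at 72 h (adjusted p = 0.5, edgeR). RPL7 was lower at all 3 times and had 3085 to 3133 TPM in No Dox cells, 2345 to 2383 at 24 h, 2243 to 2361 at 48 h, and 2313 to 2585 at 72 h.

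RPL36AL had 266, 294 and 264 TPM in No Dox cells, 355, 333 and 333 at 24 h, 358, 344 and 347 at 48 h, and 355, 377 and 384 at 72 h. It was higher by 0.26, 0.29 and 0.36 on the log2 scale (adjusted p = 0.000742, 0.000312 and 2.82e-05, edgeR). RPL36A, its more abundant partner, had 3384, 3340 and 3333 TPM in No Dox cells, 2595, 2303 and 2434 at 24 h, 2378, 2433 and 2363 at 48 h, and 2455, 2986 and 3810 at 72 h. RPL36A was lower at 24 and 48 h only, and its 3 libraries at 72 h spread across the No Dox range. The 3 other pairs were not tested, since RPL3L, RPL10L and RPL39L were at or near 0 counts.

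The ratio of paralogue to partner was higher in all 3 Dox libraries than in all 3 No Dox libraries for each of the 4 pairs at each of the 3 times. RPL26L1 over RPL26 was 0.045, 0.0436 and 0.0516 at 24 h, against 0.0129, 0.0161 and 0.0119 in No Dox cells, a difference of 1.79 in mean log2 ratio. RPL22L1 over RPL22 was 1.93, 2.03 and 2.16 against 1.02, 0.894 and 1.05. RPL7L1 over RPL7 was 0.0392, 0.0441 and 0.0393 against 0.0201, 0.0212 and 0.0205, and RPL36AL over RPL36A was 0.137, 0.144 and 0.137 against 0.0786, 0.0879 and 0.0791. In a two-sided exact permutation test all 12 comparisons gave p = 0.1, the smallest that 3 against 3 libraries allow (Benjamini-Hochberg adjusted 0.1), so this test cannot reach 0.05 here. The differences were smaller at 72 h, at 1.26, 0.70, 0.60 and 0.58 for the 4 pairs in this order. These ratios are formed from the TPM values given above and are no separate observation. How often the ratios of other gene pairs separate in this way is not given here.

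**Figure D3:**
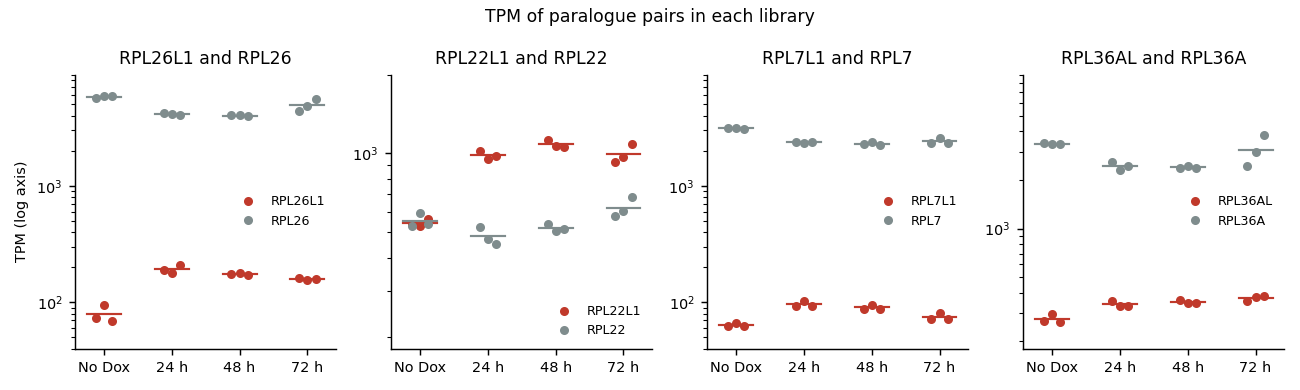
TPM on a log axis in each library for the 4 paralogue pairs, with the paralogue in red, its partner in grey and a line at each group mean. RPL26L1, RPL22L1 and RPL36AL lie above their No Dox level at all 3 Dox times, RPL7L1 is nearest to it at 72 h, and RPL26, RPL7 and RPL36A lie below theirs at 24 and 48 h.

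RPS26 and RPL35 were the other members that passed the test as higher. RPS26, which lies at the mRNA exit channel of the 40S subunit, had 836, 830 and 899 TPM in No Dox cells, 1320, 1227 and 1224 at 24 h, 1321, 1310 and 1266 at 48 h, and 1218, 1207 and 1432 at 72 h. The Dox libraries were all above the No Dox libraries, with log2 fold changes of 0.52 ± 0.068, 0.56 ± 0.068 and 0.51 ± 0.068 (adjusted p = 5.58e-07, 2.72e-07 and 1.13e-06, edgeR). RPL35 had 3854, 3940 and 4040 TPM in No Dox cells, 4805, 4589 and 4746 at 24 h, 4852, 4588 and 4378 at 48 h, and 4445, 4383 and 5327 at 72 h. Its change was small, at 0.20, 0.18 and 0.17 on the log2 scale with adjusted p = 0.0111, 0.0207 and 0.0269, and it no longer passed with effective lengths as offsets (0.20, 0.15 and 0.16, adjusted p = 0.0601, 0.174 and 0.139). The call was also lost with upper-quartile factors at all 3 times (0.14, 0.12 and 0.14), at 48 and 72 h without No Dox replicate 1 or 3 (0.17 each), at 48 h without replicate 1 of that time (0.12) and at 72 h without replicate 3 of that time (0.08). The deposited SD from reads shared with other genes was at most 0.572% of the count for any tested member, in RPS26. Whether reads were assigned to the wrong gene was not tested.

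Changes between Dox times were few at first. From 24 to 48 h only RPL7L1 was lower and only RPL3 was higher, where 18.3% of all genes tested were lower and 18.3% higher. At 72 h against 48 h, 6 members were lower and 6 higher, against 20.1% and 18.6% of all genes. At 72 h against 24 h, 9 were lower and 13 higher, against 30.2% and 30.5% of all genes, so both shares of the members were below those of all genes. The medians of the members were 0.01, -0.01 and 0.01 for these 3 comparisons. With effective lengths as offsets, both calls at 48 h against 24 h were lost, and 4 of the 12 calls at 72 h against 48 h remained.

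At 72 h against 24 h the largest drop was in RPL7L1, with a log2 fold change of -0.55 ± 0.045 (adjusted p = 1.53e-09, edgeR). RPLP2 and RPLP1 followed at -0.33 ± 0.061 and -0.27 ± 0.066, then RPS28 at -0.26, RPS15 at -0.20, RPL26L1 and RPL18 at -0.17, RPS20 at -0.16 and RPL6 at -0.14. On the other side stood RPS29 at 0.52 ± 0.14, RPL12 at 0.41 ± 0.063, RPL3 at 0.32 ± 0.048, RPL36A at 0.30, RPS27 at 0.28, RPS15A and RPL26 at 0.21 and RPL4 at 0.20. RPL13A, RPS2, RPL22, RPLP0 and RPL7A were higher by 0.15 to 0.18. For RPL12, RPL3, RPL4 and RPL13A the later level was still below No Dox. With effective lengths as offsets, 11 of these 22 calls remained, 11 were lost and 6 other members were called. Among those lost, RPS28 stood at -0.06 (adjusted p = 0.6, edgeR), RPS15 at -0.21 (0.112), RPS29 at 0.40 (0.197), RPS27 at 0.27 (0.167) and RPL13A at 0.10 (0.16), and RPL6, RPS20, RPL26, RPL36A, RPL7A and RPS15A were lost as well. RPL31, RPS27A, RPS23 and RPS4X were then lower and RPL8 and RPL27A higher. RPL7L1, RPL12 and RPL3 remained called at -0.41, 0.40 and 0.26.

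The 72 h replicates differed most on short transcripts. For the 3 tested members with a mean length under 400 nt, RPS27, RPS21 and RPS29, the median SD of log2 CPM within a group was 0.49 at 72 h, and 0.145, 0.026 and 0.08 in the No Dox, 24 h and 48 h groups. For the 39 members of 700 nt or more it was 0.112 at 72 h. RPS29 had 3348, 2026 and 5400 TPM at 72 h, and RPS21 had 2784, 1809 and 4106, with replicate 2 lowest and replicate 3 highest in both. The mean cDNA fragment length, read from the deposited lengths of 1784 single-length genes over 3000 nt, was 266.0, 258.9 and 279.0 nt in these 3 libraries and 260.2 to 274.8 nt in the others. Its part in the spread was not tested.

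The counts at 72 h rested on single libraries. Without replicate 3 at 72 h, 21 members were lower and 5 higher than at 24 h, and without replicate 2 at 72 h, 5 were lower and 19 higher. Without replicate 1 at 72 h there were 5 lower and 15 higher, and without replicate 1 at 24 h 4 lower and 13 higher. For 72 h against 48 h, 15 were lower and 2 higher without replicate 3 at 72 h, 3 and 11 without replicate 2 at 72 h, 4 and 11 without replicate 1 at 72 h, 3 and 10 without replicate 1 at 48 h, and 4 and 3 without replicate 3 at 48 h. Leaving out any other library gave 4 to 7 lower and 4 to 8 higher in this comparison. With upper-quartile factors the split was 3 lower and 11 higher for 72 h against 48 h and 5 lower and 14 higher for 72 h against 24 h. For 48 h against 24 h, the call of RPL3 was lost without replicate 2 at 24 h or replicate 1 at 48 h, and 2 members were higher without replicate 3 at 48 h. Against No Dox, by contrast, leaving out any 1 library gave 65 to 74 lower and 4 to 6 higher members at each of the 3 times.

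**Figure D4:**
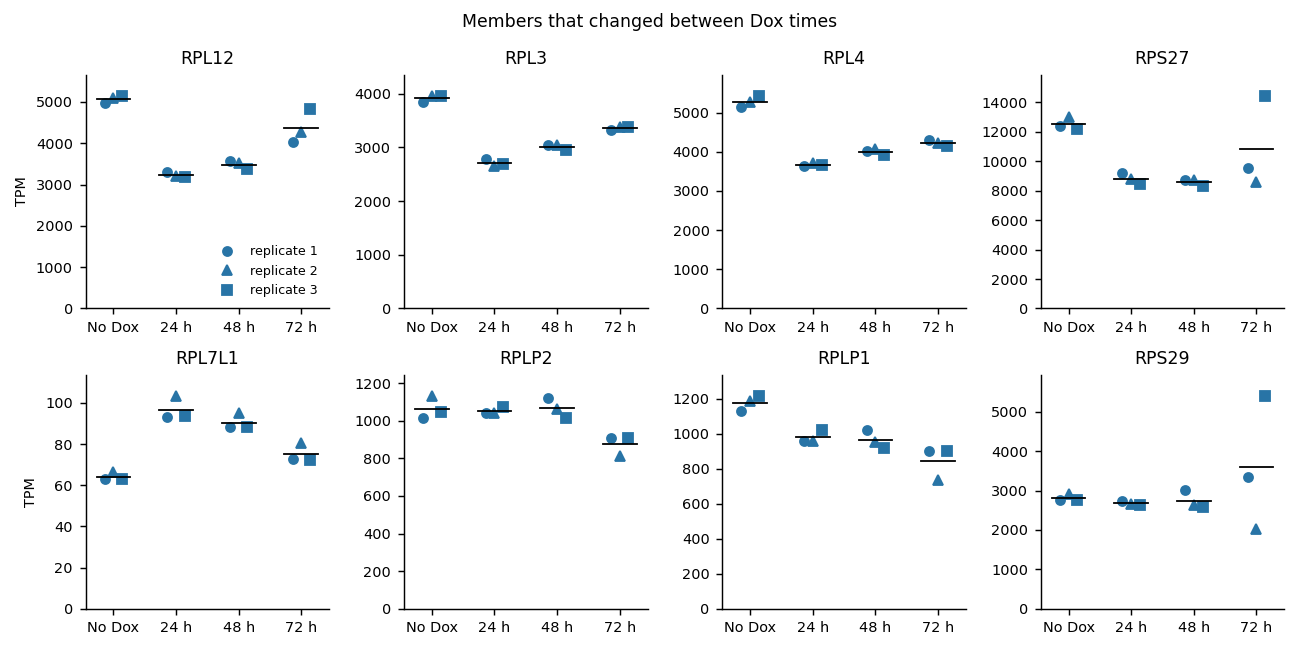
TPM in each library, with a line at the group mean and a symbol for each replicate number, for 8 members that differed between 72 h and 24 h. RPL12, RPL3 and RPL4 lie nearer to their No Dox level at 72 h than at 24 h, RPL7L1, RPLP2 and RPLP1 are lower at 72 h, and replicates 2 and 3 at 72 h are far apart for RPS27 and RPS29.

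The mean transcript length of RPL22 was shorter in Dox. RSEM's gene length is weighted by the levels of the isoforms. For RPL22 (chr1:6185020-6209389, minus strand, GENCODE 44 on GRCh38) it was 1355, 1488 and 1513 nt at 24 h, 1394, 1455 and 1418 nt at 48 h, and 1376, 1355 and 1261 nt at 72 h, against 1845, 1752 and 1754 nt in No Dox cells. All 9 Dox libraries thus had shorter transcripts, with log2 differences of -0.30, -0.33 and -0.42 (adjusted p = 0.00752, 0.00581 and 0.00153, limma over 12638 genes). Of 80 members with a varying length, RPL22 was the only one called at 24 and 48 h, at adjusted p under 0.05 and a difference of at least 0.1, where 6.11% and 4.17% of all genes tested were called. At 72 h RPL7L1 and RPL8 were called as well, with 5.32% of all genes.

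The level of RPL22 depended on whether length was taken into account. Its counts were lower in Dox, with log2 fold changes of -0.60, -0.54 and -0.42, whereas with effective lengths as offsets the values were -0.25, -0.16 and 0.07 (adjusted p = 0.0255, 0.127 and 0.534, edgeR). RPL22 therefore gave fewer reads at all 3 times, and per transcript length it was lower only at 24 h. RPL31 moved the other way, at -0.73 with effective lengths and -0.43 by counts at 72 h. Across the 81 members, the change at 24 h had a Spearman correlation of -0.15 with mean transcript length, and -0.15 and -0.20 at 48 and 72 h, over genes that share the same libraries.

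Ribosomal proteins outside the naming rule were mixed. RACK1, the 40S scaffold protein, had 1717 ± 74.9, 1910 ± 90.2 and 1760 ± 24.0 CPM at 24, 48 and 72 h, against 2693 ± 37.5 CPM in No Dox cells (SD, n = 3 each), and was lower by 0.65, 0.50 and 0.61 on the log2 scale. FAU, a ubiquitin-like fusion that yields RPS30, was higher by 0.32 at 24 and 48 h. RPS27L, the p53-responsive relative of RPS27, was higher by 0.55 and 0.59 at 48 and 72 h.

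Other mRNAs known to carry a TOP tract moved mostly the same way. Of 21 translation factors and related genes, 17 were lower and 2 higher at 24 h, 14 and 3 at 48 h, and 16 and 2 at 72 h, with medians of -0.35, -0.32 and -0.30. EIF4B, a cofactor of the helicase EIF4A, had a log2 fold change of -1.64 at 24 h, and EIF3E and TPT1 stood at -0.97 and -0.95. EEF1A1, which brings aminoacyl-tRNA to the ribosome, was lower by 0.97 at 24 h and by 0.32 at 72 h, and EEF2, the translocation factor, by 0.88 and 0.61. NPM1, a nucleolar chaperone, was higher by 0.38 at 24 h.

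Genes that build ribosomes moved mostly in the opposite direction, and less so at 72 h. Of 43 ribosome biogenesis genes, 40 were higher and 0 lower at 24 h, 37 higher and 2 lower at 48 h, and 28 higher and 5 lower at 72 h, with medians of 0.70, 0.50 and 0.26. TCOF1, which supports transcription of rRNA genes, had log2 fold changes of 1.72, 1.46 and 1.15, and MRTO4 and EBNA1BP2, both of 60S assembly, had 1.65 and 1.53 at 24 h. Of 17 chaperones and late assembly factors, 13 were higher and 2 lower at 24 h and 7 higher and 2 lower at 72 h, with medians of 0.81 and 0.07. The 41.2% of them that were higher at 72 h lay near the 34.3% of all genes tested. RRS1, which brings the 5S RNP to the pre-60S particle, had log2 fold changes of 1.40 at 24 h and -0.17 at 72 h, and TSR2, the chaperone of RPS26, had 1.23 and 0.58. Of 78 mitochondrial ribosomal protein genes, 67 were higher and 2 lower at 24 h and 61 higher and 5 lower at 72 h, with medians of 0.63 and 0.38. Of 75 nuclear genes of respiratory chain subunits, 38 were higher and 16 lower at 24 h with a median of 0.13. At 72 h 28 were higher and 16 lower with a median of 0.05, and the 37.3% that were higher lay near the 34.3% of all genes tested.

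**Figure D5:**
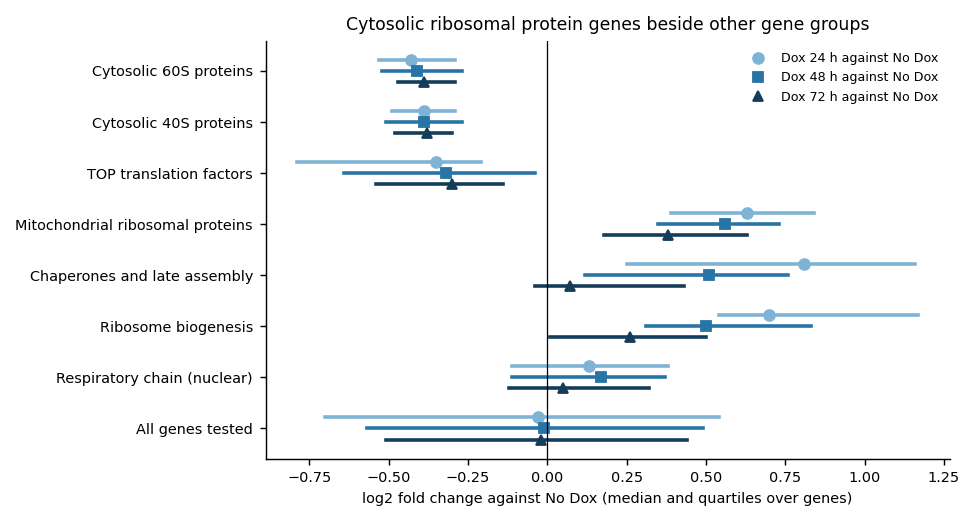
The median log2 fold change of Dox against No Dox (symbol) and the range between its quartiles over genes (bar) for each group of genes at 24, 48 and 72 h. The 60S and 40S groups and the TOP translation factors have medians between -0.43 and -0.30, whereas ribosome biogenesis and mitochondrial ribosomal protein genes have medians between 0.26 and 0.70.

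Among candidate regulators of the family, MYC was lower. It had 263 ± 4.53, 265 ± 8.11 and 331 ± 13.3 CPM at 24, 48 and 72 h, against 594 ± 6.11 CPM in No Dox cells (SD, n = 3 each), with log2 fold changes of -1.18, -1.16 and -0.85. MXD4, MXI1 and MNT, which compete with MYC for MAX, had -2.61, -2.42 and -1.23 at 24 h. Of 14 tested transcription factors tied to ribosomal protein genes, 11 were lower and 3 higher at 24 h, or 78.6% and 21.4%. Over all genes tested, 38.1% were lower and 37.1% higher at that time. Of these factors, 10 were lower and 3 higher at 48 h, and 9 were lower and 3 higher at 72 h. Of 20 mTORC1 and TOP regulators, 7 were lower and 9 higher at 24 h, or 35.0% and 45.0%, near the 38.1% and 37.1% of all genes tested. LARP1 was higher by 0.41 and 0.37 at 24 and 48 h and stood at 0.05 at 72 h. EIF4EBP1, a translation repressor, and EIF4E, the cap-binding protein it holds, were higher by 1.23 and 1.21 at 24 h, and TSC1, an inhibitor of mTORC1, was lower by 1.31. The part of these genes in the changes of the ribosomal protein genes was not tested.

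Promoter motifs were counted in the 300-base RefSeq windows, from 250 bases before to 50 bases after a start, on both strands and over all listed starts of a gene. CCGGAAG, the core that ETS factors such as GABPA bind, was in 34.3% of the 67 members with a window and 16.8% of 15236 protein-coding genes. AAGATGGCG, a YY1 motif, was in 8.96% and 3.29%. CACGTG, the E-box, was in 5 of the 67 members and 1674 of the 15236 genes, and TATAAA in 10.4% and 12.4%. A match is a description of these windows, and the listed starts may not be those used in these cells. GGAATGT, the TEAD motif, was in 1.49% and 3.62%, RPL6 alone, and TGANTCA, the AP-1 motif, was in 2.99% and 8.06%. The TOP-like start was present in 42 of the 56 members with a window that were lower at 24 h, in 2 of the 6 that were higher and in 3 of the 4 that did not pass.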

How the data were processed

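Per the study's methods, STAR alignments to GRCh38 and GENCODE 22 were passed to RSEM, with no tool version or strand setting given in the sources used here. The tables deposited by the authors hold expected counts, TPM, isoform-weighted gene and effective lengths, posterior mean counts and their SD from shared reads. Names came from GENCODE 44 by gene identifier for 56714 of 60483 rows, 393 through at least 80% of their transcript identifiers. Expected counts were rounded, filtered with filterByExpr, scaled with TMM and fitted over all 12 libraries with edgeR's quasi-likelihood test (edgeR 4.0.16 in R 4.3.3). The fit was also run on simulated counts in which far fewer genes changed than here. The simulation therefore did not test the scaling under changes as wide as these. Transcript lengths were compared with limma 3.58.1, and DESeq2 1.42.0 was an alternative. The coefficient of variation between replicates was 5.71%. SE are those of the log2 fold change. P-values measure the spread between these libraries, which may be technical. Per-library values are given for the 6 lowest and 6 highest members past the test with a mean of at least 5 CPM. They are also given for all paralogue pairs, RPLP0, RPLP1, RPLP2, RPSA, RPS27A and the 3 members highest and 3 lowest in TPM. NPM1 and TSR2 were named after their values were seen. Members and lists were chosen with earlier results of these data known. Leaving out libraries, other scalings, filters, counts, lengths and thresholds were tried. Promoter sequences are from RefSeq. Some items of the gene lists are not reported here.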

Additional observations from a re-analysis of the deposited data

Results flagged for a closer look

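The change against No Dox differed between 72 h and 24 h for 22 members, by edgeR's test of the difference between these times. In both directions this was a smaller share than among all genes tested, of which 30.2% were lower and 30.5% higher at 72 h than at 24 h. Which direction held more members depended on single libraries at 72 h. Of the 22 members, 9 had moved down by 72 h. They were RPL7L1 (log2 difference -0.55), RPLP2 (-0.33), RPLP1 (-0.27), RPS28 (-0.26), RPS15 (-0.20), RPL26L1 (-0.17), RPL18 (-0.17), RPS20 (-0.16) and RPL6 (-0.14). The 13 that had moved up were RPS29 (0.52), RPL12 (0.41), RPL3 (0.32), RPL36A (0.30), RPS27 (0.28), RPS15A (0.21), RPL26 (0.21), RPL4 (0.20), RPL13A (0.18), RPS2 (0.18), RPL22 (0.17), RPLP0 (0.16) and RPL7A (0.15). With effective lengths as offsets, 11 of the 22 remained called, and RPL13A, RPL26, RPL36A, RPL6, RPL7A, RPS15, RPS15A, RPS20, RPS27, RPS28 and RPS29 did not. RPL3, RPL4 and RPL7L1 had narrow 72 h groups, with 3317 to 3385, 4137 to 4312 and 72.4 to 80.5 TPM. RPS29, RPS27 and RPL36A did not, with 2026 to 5400, 8579 to 14440 and 2455 to 3810 TPM at 72 h.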

How the results depend on the processing

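Against No Dox, the counts of lower and higher members and their medians stayed within 1.5 times or within the replicate spread under every alternative, with 65 to 74 lower and 4 to 6 higher. Of the values of single named members, 24 lost and 10 gained a call over all alternatives. RPL22 at 72 h reversed to 0.07 with effective lengths as offsets. At adjusted p under 0.01, 0 members were higher at 48 h against 24 h, 3 lower and 2 higher at 72 h against 48 h, and 4 lower at 72 h against 24 h. With effective lengths, 0 were lower and 0 higher at 48 h against 24 h, 2 higher at 72 h against 48 h and 8 higher at 72 h against 24 h. Upper-quartile factors gave 3 lower and 11 higher at 72 h against 48 h and 5 lower at 72 h against 24 h. DESeq2 size factors gave 10 higher at 72 h against 48 h, and library totals alone or no filter 11, with 2 higher at 48 h against 24 h. Only the 2 groups compared gave 5 lower at 72 h against 24 h. Leaving out 1 library gave 0 to 2 higher at 48 h against 24 h, 3 to 15 lower and 2 to 11 higher at 72 h against 48 h, and 4 to 21 lower and 5 to 19 higher at 72 h against 24 h. A length difference of at least 0.2 left 1 member at 72 h against No Dox and 0 against 24 h. From CPM, the RPL7L1 ratio changed by 1.07 at 24 h and 0.54 at 72 h and the RPL22L1 ratio by 1.39, 1.46 and 1.15. The share of the members as a ratio of No Dox was 0.773, 0.786 and 0.82 from TPM, and 0.724, 0.742 and 0.76 from counts. The cause was not tested beyond the construction of each alternative. Adding pseudogene counts, chosen after seeing the data, changed no count. Same-numbered libraries correlated by -0.205 to 0.32 over 18 pairs, with 3 pairs above 0.1. The labels do not say whether the numbers pair the samples, and the main fit did not pair them. With the replicate block, 71, 69 and 69 members were lower at 24, 48 and 72 h, and 7 lower and 4 higher at 72 h against 48 h.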
